A study of Mus musculus with 2 samples.

Results

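The genes described here encode the fibroblast growth factors (FGFs), their receptors and the Sprouty and Spred proteins that restrain them. They were chosen by symbol from the protein-coding genes of GENCODE release M21: Fgf followed by digits, Fgfr1 to Fgfr4, Fgfrl1, Spry1 to Spry4 and Spred1 to Spred3. This gave 34 genes, of which 33 could be measured among 21853 protein-coding genes. Spry3 lies on an unplaced scaffold of the assembly on which the peak lists have no entry, and is not analysed here.

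Open chromatin was profiled by DNase-seq, which sequences the ends that the enzyme DNase I leaves where DNA is free of nucleosomes, in gastrocnemius (calf) muscle of B6CASTF1/J males aged 4 days. B6CASTF1/J is the first-generation hybrid between the C57BL/6J and CAST/EiJ strains. The labels put both libraries in 1 group, as biological replicates 1 and 2, with 3 males named in each label, a shared donor entry and a separate tissue sample each. There was no treatment, other genotype or other age to compare with, so all values below are levels with their spread over the 2 libraries, and no test was made.

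FGFs bind receptor tyrosine kinases together with heparan sulfate or a Klotho protein. The activated receptor recruits adaptors that switch on RAS and the ERK kinases, and ERK signalling induces ETS factors such as Etv5 as well as the Sprouty genes, whose products dampen the same cascade. In muscle the pathway is known for keeping myoblasts proliferating and for its part in satellite cells, the stem cells of the fibre. The FGF homologous factors Fgf11 to Fgf14 are not secreted and bind voltage-gated sodium channels instead of receptors.

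A peak is an interval that the authors called as accessible in 1 library, and its density is their value for cutting within it. A rank is the percentile of a peak's density within its own library, so 100 is the strongest peak. A promoter peak touched the 500 bp on either side of a protein-coding start of the gene, and the strongest one was used. A footprint is a short stretch inside accessible DNA that is protected from cutting. Positions in bp are counted from the gene's most upstream protein-coding start unless another start is named, and negative values are upstream.

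The sequences below are the strongest promoter and distal stretches of these genes in which a searched motif lay inside a footprint in both libraries. They were picked for that match, so they do not represent the strongest sites in general, several of which held no such match. They are given 5′ to 3′ on the plus strand of mm10 (GRCm38.p6), which is the C57BL/6J copy and not the CAST/EiJ one. Capitals mark the GC box GGGCGG, or its reverse complement, which SP and KLF factors bind, where it lay inside a footprint in both libraries. Other copies are left in lower case. Each promoter stretch lies upstream of the start it belongs to, and the GC box of Spry2 is at -663 bp.
Spry1 promoter, chr3:37639761-37639946: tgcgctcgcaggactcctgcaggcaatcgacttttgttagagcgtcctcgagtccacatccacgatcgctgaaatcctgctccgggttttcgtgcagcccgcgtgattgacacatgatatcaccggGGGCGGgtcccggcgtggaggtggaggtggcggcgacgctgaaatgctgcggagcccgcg
Spry2 promoter, chr14:105897281-105897540: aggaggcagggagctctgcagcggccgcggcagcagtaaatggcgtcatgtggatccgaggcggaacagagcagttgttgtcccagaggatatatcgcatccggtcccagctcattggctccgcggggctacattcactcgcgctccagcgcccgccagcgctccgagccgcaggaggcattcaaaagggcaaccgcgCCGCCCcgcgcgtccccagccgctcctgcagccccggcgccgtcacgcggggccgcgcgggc
Fgfrl1 promoter, chr5:108694001-108694229: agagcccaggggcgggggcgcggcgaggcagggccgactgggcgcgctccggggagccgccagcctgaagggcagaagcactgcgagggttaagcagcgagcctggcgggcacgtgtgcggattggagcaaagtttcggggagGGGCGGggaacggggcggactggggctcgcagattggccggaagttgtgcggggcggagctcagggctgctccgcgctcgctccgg
Fgfr4 distal peak, chr13:55190241-55190520: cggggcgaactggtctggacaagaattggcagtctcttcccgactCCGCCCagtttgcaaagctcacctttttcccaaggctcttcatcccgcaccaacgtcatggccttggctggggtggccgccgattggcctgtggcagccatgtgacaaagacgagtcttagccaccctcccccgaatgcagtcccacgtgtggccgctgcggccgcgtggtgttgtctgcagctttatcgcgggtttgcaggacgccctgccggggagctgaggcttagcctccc
Fgf11 distal peak, chr11:69802861-69803060: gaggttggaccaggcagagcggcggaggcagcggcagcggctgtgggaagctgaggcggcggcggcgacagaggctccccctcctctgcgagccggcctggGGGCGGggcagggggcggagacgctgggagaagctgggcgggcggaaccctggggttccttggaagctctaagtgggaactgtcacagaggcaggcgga
Fgfr1 intronic peak, chr8:25543341-25543520: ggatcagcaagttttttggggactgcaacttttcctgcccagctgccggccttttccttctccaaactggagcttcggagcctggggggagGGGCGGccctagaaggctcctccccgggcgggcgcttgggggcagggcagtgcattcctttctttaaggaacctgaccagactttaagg

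Most of the 33 genes had an accessible promoter. Taken at the strongest start of each gene, the promoters of the antagonists and receptors ranked higher at the median than those of the ligands. A promoter peak was found for 26 genes in replicate 1, where 65.3% of all protein-coding genes had one, and for 27 in replicate 2, where 67.0% had one. In both libraries together it was 26 genes, or 78.8%, against 64.1% of all genes. The same 26 genes were called in each library, and Fgf6 was the gene added in replicate 2. Fgf3, Fgf4, Fgf8, Fgf17, Fgf21 and Spred3 had no promoter peak in either. By class, the peak was there in both libraries at 5 of 5 receptors, 3 of 3 Sprouty genes, 2 of 3 Spred genes, 4 of 4 homologous factors and 12 of 18 secreted ligands.

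The classes also had peaks of different strength, taken as the strongest over all annotated starts of a gene. The number of starts differs, with 10 at Fgfr3, 8 at Fgfr1, 7 at Fgf1 and 1 at Spry4. With the first start only, Fgf14 and Fgfr1 lost the call, and class medians at first starts were not computed. Among genes with a peak in both libraries, the median of the mean rank was 96.5 for Sprouty, 89.9 for receptors, 89.4 for Spred, 73.5 for secreted ligands and 55.4 for the homologous factors. Over all 26 it was 81.0, below the 92.1 of the 14000 genes with such a peak. These genes had a promoter peak in a larger share of cases than all genes, with a lower median rank where they had one. Neither comparison is matched for CpG content, which is taken up below, so the larger share is not set apart here from the CpG content of these genes. With genes lacking a peak set to 0, their median rank was 70.6 in replicate 1 and 76.5 in replicate 2, where all genes had 74.8 and 79.8.

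**Figure D1:**
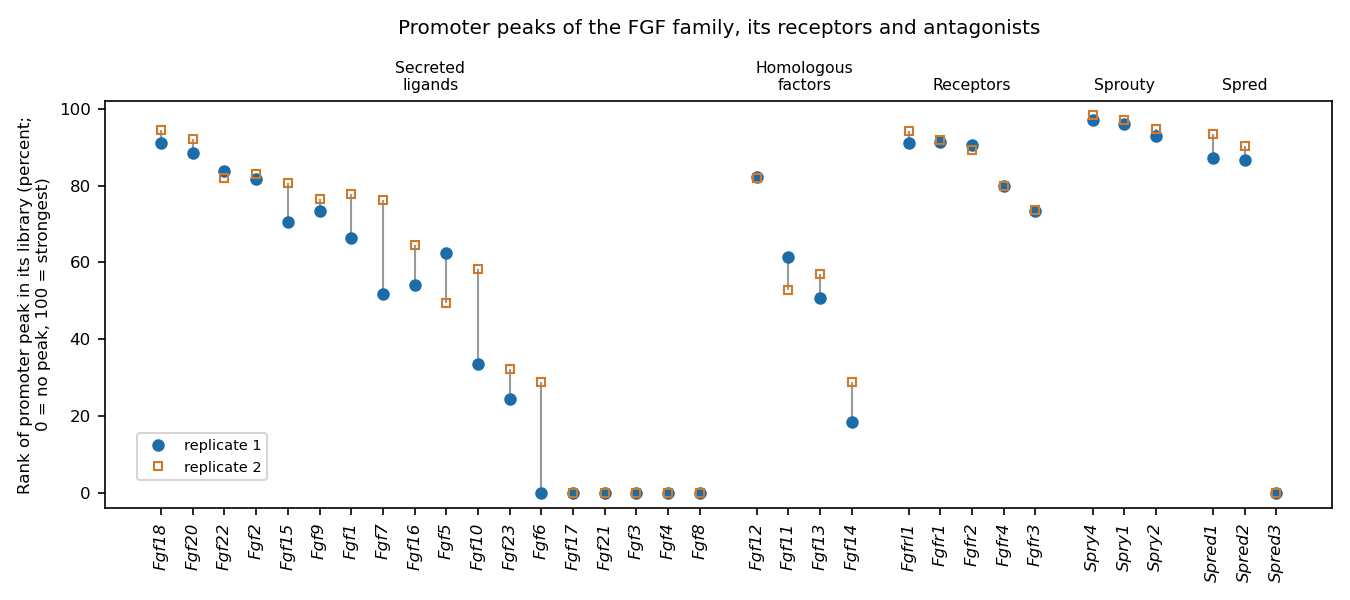
Rank of the strongest promoter peak (vertical axis, percent, 0 where there was none) of each of the 33 genes (horizontal axis, by class), with filled circles for replicate 1, open squares for replicate 2 and a grey line joining them. Sprouty genes lie above 92 in both libraries, while secreted ligands spread from 0 to 94.5.

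The label of the tissue was set beside marker genes. Of 10 skeletal muscle markers, 10 had a promoter peak in replicate 1, where 65.3% of all genes had one, and 9 in replicate 2 (Tnnt3, fast troponin T, lacked it there), where 67.0% had one. In both libraries it was 9 of 10 muscle, 4 of 5 fibroblast, 3 of 5 endothelial, 3 of 5 Schwann cell, 1 of 5 keratinocyte, 0 of 5 macrophage and 0 of 5 hepatocyte markers, against 64.1% of all genes. The endothelial and Schwann cell shares are near that background, and say nothing about whether those cells were present. A shared distal peak within 50 kb was found for 10 of 10 muscle markers, but also for 5 of 5 macrophage and 3 of 5 hepatocyte markers, against 73.3% of all genes, so the contrast between these lists lay in the promoters. That contrast is not matched for CpG content. The macrophage markers had CpG ratios (defined below) of 0.115 to 0.322 and the hepatocyte markers 0.136 to 0.319. In classes of such ratios 13.0% to 43.8% of all genes were called in both libraries. The muscle markers ran from 0.0827 to 0.841. In a whole tissue, accessibility in few of the cells and weak accessibility in many cannot be told apart, and which cells carry any of the peaks below was not tested.

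The deposited densities have a different step in each library. Those under 1 were whole multiples, within 0.1 step, of 0.00675 in replicate 1 and 0.00333 in replicate 2, a ratio of 2.03, and the longer peak lists hold 94295 and 123291 peaks. The depth in reads is unknown, so no counting interval is given. Of the 26 genes, 25 had the higher density in replicate 1 and 20 the higher rank in replicate 2, and the median ratio of their densities, 1.47, was near the 1.52 of all genes. Neither a density nor a rank therefore shows a change between the libraries.

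The Sprouty genes had the strongest promoters of the set. Spry4, an inhibitor of RAS activation, had a peak on chromosome 18 from 38601321 to 38601520 in both libraries, over its start, with a density of 8.59 and 5 footprints in replicate 1 and 5.85 and 3 footprints in replicate 2. Its rank was 97.8 ± 0.786 (SD, n = 2, as for all ranks below), and the same peak lies within 500 bp of a start of the noncoding gene AC133601.1. Spry1, which is known for returning satellite cells to quiescence, had densities of 7.37 and 4.77 at 37639761 to 37639940 on chromosome 3, with 5 and 4 footprints and a rank of 96.5 ± 0.742. Its sequence is the first printed above, with the GC box at -57 bp. Spry2 had densities of 5.27 and 3.60 at 105897281 to 105897540 on chromosome 14, with 4 and 5 footprints and a rank of 93.8 ± 1.40. The ranges of these 3 genes over the libraries did not overlap, with Spry4 from 97.2 to 98.3, Spry1 from 96.0 to 97.0 and Spry2 from 92.8 to 94.8. That of Spry2 overlapped those of Fgf18 and Fgfrl1, the next in order.

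Spred proteins block RAS by bringing neurofibromin to the membrane, and their genes were split. Spred1 had a density of 3.29 in replicate 1, at 117120901 to 117121180 on chromosome 2, and 3.09 in replicate 2, at a neighbouring peak from 117120641 to 117120880, with 5 footprints in each and a rank of 90.3 ± 4.47. This rank and its SD set different peaks side by side. In replicate 1 the neighbouring region had a density of 4.87, but its peak did not touch the 500 bp around a start. The region at 117120901 had a density of 2.16 in replicate 2. Spred2 had 3.19 and 2.29 at 19923981 to 19924520 on chromosome 11, with 13 and 5 footprints and a rank of 88.5 ± 2.62. Spred3 had no promoter peak and no base with a false discovery rate (FDR) below 0.05 within 500 bp of its start in either library.

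All 5 receptor genes were accessible, at a start that was often not the first one annotated. Fgfrl1, a receptor without a kinase domain, had densities of 4.44 and 3.34 at 108694001 to 108694280 on chromosome 5, with 5 and 3 footprints and a rank of 92.6 ± 2.23. The peak lay at starts from 1848 bp onwards, and the weaker peak at its first start had a rank of 67.1 in each library. Fgfr1, a receptor of myoblasts and fibroblasts, had densities of 4.56 and 2.66 at 25518661 to 25518880 on chromosome 8, with 5 and 6 footprints and a rank of 91.6 ± 0.480. This was the cluster of starts from 5105 to 5141 bp, and neither the first start nor those at 18471 and 18627 bp had a peak.

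Fgfr2, known mainly from epithelia and bone, had densities of 4.27 and 2.10 at 130266221 to 130266420 on chromosome 7, with 3 and 7 footprints and a rank of 89.9 ± 0.90. These are the starts 2857087 to 2857159 bp downstream of a single far upstream start. The far start is annotated among the starts of Ctbp2, a transcriptional corepressor gene, and the peak there, at ranks of 79.6 and 81.2, touches starts of both genes. The CpG ratio and the 50-kb distal count of Fgfr2 below are taken from the far start. Fgfr4, a receptor of embryonic and regenerating muscle, had densities of 2.18 and 1.2 at 55152681 to 55152900 on chromosome 13, with 3 and 4 footprints and a rank of 79.9 ± 0.132. Fgfr3, known for restraining bone growth, had 1.64 and 0.943 at 33721581 to 33722040 on chromosome 5, with 2 and 7 footprints and a rank of 73.5 ± 0.249. Fgfr4 and Fgfr3 were separated by more than their spread from each other and from the other 3 receptors.

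Among the secreted ligands, Fgf18 and Fgf20 stood highest. Fgf18, a ligand of cartilage and bone growth, had densities of 4.45 and 3.48 at 33146241 to 33146440 on chromosome 11, with 2 and 3 footprints and a rank of 92.8 ± 2.47. Fgf20 had 3.67 and 2.68 at 40307841 to 40308040 on chromosome 8, with 3 and 4 footprints and a rank of 90.4 ± 2.41. That peak also lies within 500 bp of starts of Micu3, a regulator of mitochondrial calcium uptake, and of the microRNA gene Mir7666, so it cannot be assigned to Fgf20 alone. The other ligands of the same subfamily were lower. Fgf9 had densities of 1.65 and 1.05 at 58072061 to 58072280 on chromosome 14, near its start at 2139 bp, with 2 and 4 footprints and a rank of 75.0 ± 2.14. Fgf16 had 0.959 and 0.710 at 105763701 to 105763920 on chromosome X, of which males carry a single copy, with 2 and 4 footprints and a rank of 59.4 ± 7.27.

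Fgf1 and Fgf2, ligands released without a signal peptide, were accessible at more than 1 start. Fgf2 had densities of 2.38 and 1.42 at 37380261 to 37380460 on chromosome 3, next to an internal start at 32409 bp, with 2 and 5 footprints and a rank of 82.4 ± 1.01. At its first start the strongest peak was a different one in each library. It had rank 75.0 in replicate 1 (37348521 to 37348960) and 82.6 in replicate 2 (37348221 to 37348420). Both regions had a peak in both libraries, with densities of 1.75 and 1.03 in the first and 1.53 and 1.38 in the second. Fgf1 had densities of 1.3 and 1.10 at 38929461 to 38929660 on chromosome 18, with 1 and 4 footprints and a rank of 72.0 ± 8.08. A peak at its start at 10701 bp had ranks of 63.8 and 74.7, and the 4 starts from 62469 to 70724 bp had none. An E-box CAGCTG, the core bound by myogenic bHLH factors, lay at -90 bp of Fgf1 (38929559 to 38929564) inside a footprint in both libraries.

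The Fgf7 subfamily, whose founding members act from mesenchyme on epithelia, held the 2 genes with the widest spread between the libraries, Fgf7 and Fgf10. Fgf22, known as an organizer of synapses in the brain, had densities of 2.65 and 1.33 at 79754981 to 79755160 on chromosome 10, with 3 footprints in each and a rank of 82.8 ± 1.25. Fgf7 (keratinocyte growth factor) had 0.905 and 1.04 at 126034421 to 126034600 on chromosome 2, with 2 footprints in each and a rank of 64.0 ± 17.4. It was the gene with the higher density in replicate 2. Fgf10, which drives lung and limb budding, had 0.621 and 0.610 at 118715021 to 118715260 on chromosome 13, with 4 and 6 footprints and a rank of 45.9 ± 17.5, and a start of the noncoding gene Gm16263 lies within 500 bp of it. With spreads of this size, neither gene can be placed among the other ligands of middle rank. Fgf3, of the same subfamily, had no promoter peak.

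**Figure D2:**
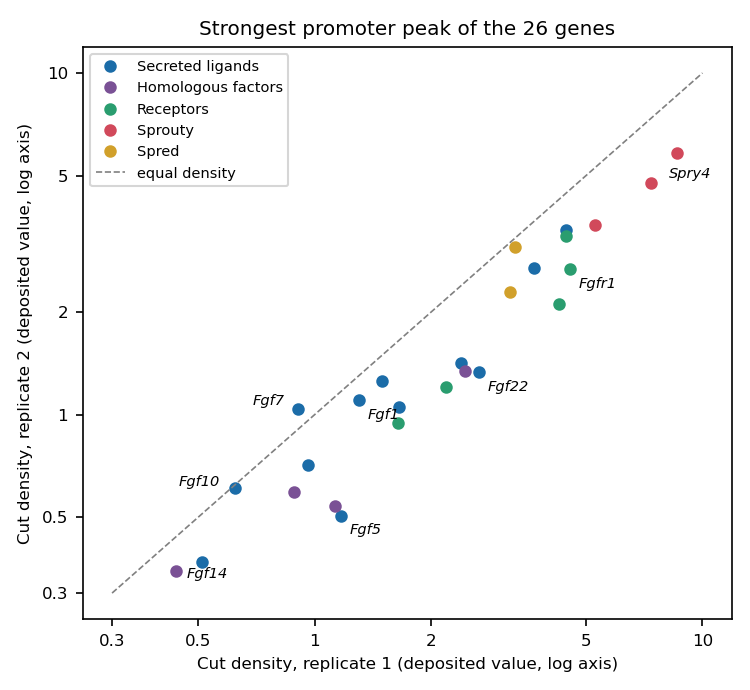
Density of the strongest promoter peak in replicate 1 (horizontal, log axis) against replicate 2 (vertical, log axis) for the 26 genes with a peak in both libraries, coloured by class, with selected genes named and a dashed line at equal density. Fgf7 (0.905 and 1.04) lies above the line and the other 25 genes lie below it, Fgf10 (0.621 and 0.610) closest to it.

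The Fgf4 subfamily holds the ligand most tied to muscle. Fgf6, which is expressed mainly in skeletal muscle, had a promoter peak in replicate 2 alone, an interval from 127015101 to 127015169 on chromosome 6 with a density of 0.347, 1 footprint and a rank of 28.7. In its promoter 81 bases had an FDR below 0.05 in replicate 2, the lowest FDR being 0.0212, and 0 had in replicate 1. Fgf5, a regulator of the hair cycle, had densities of 1.17 and 0.506 at 98253901 to 98254380 on chromosome 5, with 6 and 13 footprints and a rank of 56.0 ± 9.17. Fgf4, a ligand of the early embryo, had none.

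Of the hormone-like ligands, which act at a distance through Klotho proteins, Fgf15 and Fgf23 had a promoter peak. Fgf15, the bile acid signal of the ileum, had densities of 1.49 and 1.25 at 144895901 to 144896120 on chromosome 7, with 3 footprints in each and a rank of 75.6 ± 7.07. Fgf23, the phosphate hormone of bone, had 0.513 and 0.370 at 127072989 to 127073100 on chromosome 6, with 0 and 3 footprints and a rank of 28.3 ± 5.38. Fgf21, a hormone made mainly by liver and also by stressed muscle, had no promoter peak and no base with an FDR below 0.05 at its start in either library.

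The homologous factors all had a promoter peak, with Fgf12 well above the other 3. Fgf12 had densities of 2.44 and 1.34 at 28753221 to 28753400 on chromosome 16, with 2 and 4 footprints and a rank of 82.1 ± 0.0810, and all 4 of its starts, which span 306993 bp, had a peak in both libraries. Fgf11 had 1.13 and 0.540 at 69801515 to 69801699 on chromosome 11, with 3 footprints and 1 footprint and a rank of 57.0 ± 6.11. Fgf13, on chromosome X, had 0.884 and 0.593 at 59567301 to 59567600, with 2 and 5 footprints and a rank of 53.8 ± 4.53. Fgf14 had the lowest promoter rank of the 26, 23.5 ± 7.31, from densities of 0.439 and 0.347 at 124192241 to 124192620 on chromosome 14, with 2 footprints in each. That peak lay at its start at 484225 bp. The first start had no peak in replicate 1 and one of rank 12.5 in replicate 2.

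Promoters rich in CpG are accessible in most tissues, so each gene was also set beside genes of like CpG content. The CpG ratio, observed over expected CpG in the 1 kb around the most upstream start, was cut into 10 equal classes over all genes. The share of all genes called in both libraries ran from 5.26% in the lowest class to 98.2% in the highest. The lowest class held 1 of the 33 genes, and so did the next. From the lowest class up, 0 of 1, 1 of 1, 1 of 2, 3 of 5 and 5 of 6 were called in both libraries. In the higher classes it was 3 of 4, 5 of 5, 4 of 5, 1 of 1 and 3 of 3. The shares of all genes in the same order were 5.26%, 13.0%, 23.7%, 43.8%, 75.6%, 90.6%, 95.7%, 96.6%, 98.2% and 98.2%. A share over the 33 genes matched for CpG content was not computed. Fgf8, the organizer ligand of the limb bud and midbrain, had a ratio of 0.789, in a class where 96.6% of genes were called in both libraries, and had none. In its promoter 18 bases had an FDR below 0.05 in replicate 2, the lowest 0.0447, and 0 had in replicate 1. Fgf3, a ligand of the inner ear and tail, had a ratio of 0.583, in a class at 90.6%, and no base below 0.05 in either library. The other 4 genes without a peak were in classes where it is less common, at 43.8% for Fgf17 and Spred3, 23.7% for Fgf21 and 5.26% for Fgf4.

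The opposite case was Fgf23 (ratio 0.175, class at 13.0%) and Fgf1 (0.198, class at 23.7%), which were called in both libraries despite little CpG. Fgf7 (0.379), Fgfrl1 (0.319) and Fgfr1 (0.280) were also called, in a class at 43.8%. They are 3 of the 5 genes of the set in that class, and Fgf1 is 1 of 2 in its own. These are too few genes to set apart from the class shares. The strongest peaks of Fgfr1 and Fgfrl1 lie at later starts, which their ratios do not describe.

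**Figure D3:**
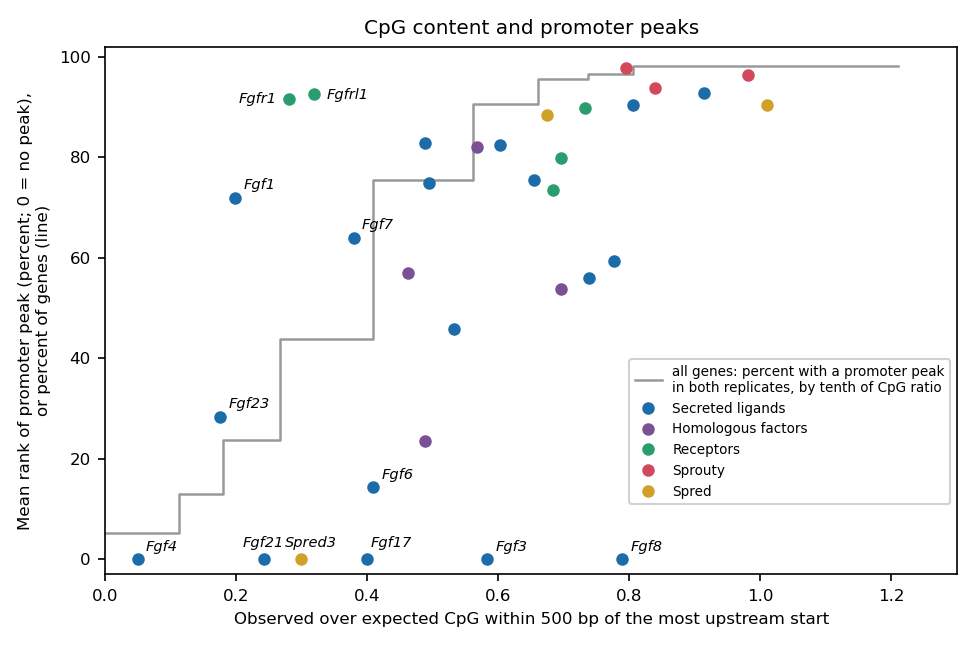
Mean rank of the promoter peak over both replicates (points, percent, 0 where there was none) against the CpG ratio around the most upstream start of the 33 genes, coloured by class, with the grey line giving the percent of all genes with a promoter peak in both replicates in each of 10 classes of the ratio. Fgf8 and Fgf3 lie at 0 where the line is at 96.6 and 90.6, and Fgf1 and Fgf23 lie to the left.

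Distal peaks, with their centre over 1 kb away from all annotated starts, were common around these genes. A distal peak shared by both libraries lay within 50 kb of 29 of the 33 genes (87.9%), where 73.3% of all protein-coding genes had one. The median gene had 4 such peaks, against 2 over all genes. Fgf3, Fgf5, Fgf10 and Fgf13 had none. In all there were 126 regions, of which 45 lay within the gene itself, and 2 were shared by a pair of members, Fgf4 with Fgf15 and Fgf6 with Fgf23. Distance does not assign a region to a gene: the nearest protein-coding start was that of one of the 33 genes for 82 regions and of another gene for 44. Neither this split nor the count within the gene was made over all genes, so they are not results about this set.

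The regions were set beside all shared distal regions. Their median mean rank was 64.4, against 56.2 over all 45008, and 6.35% were in the top 10% by rank, against 3.86%. Exons held 13.5% of them against 7.69%, and introns 44.4% against 46.8%. The median GC content was 56.3% against 53.5%. A footprint was present in 88.9% in replicate 1 and 95.2% in replicate 2, against 89.2% and 95%.

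**Figure D4:**
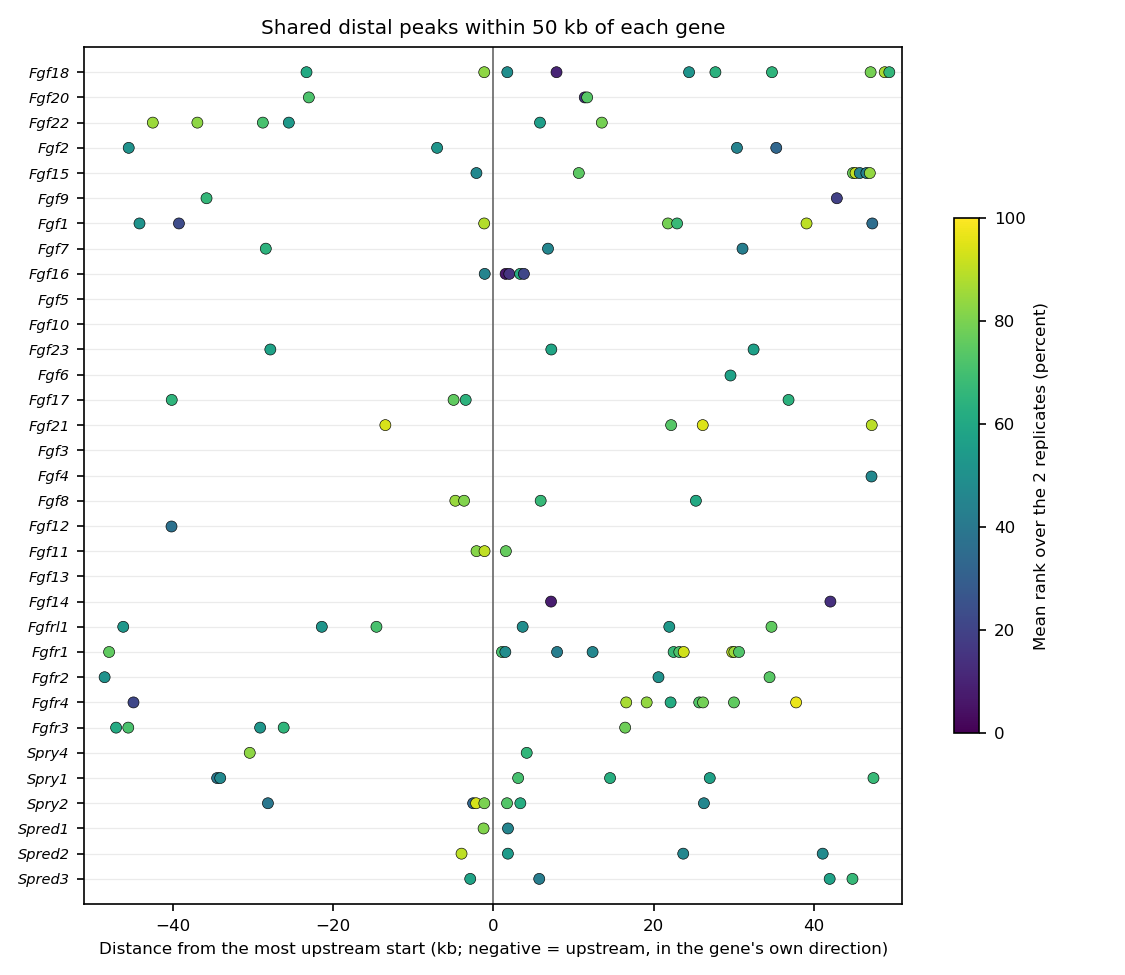
Distance in kb from the most upstream start (horizontal, negative upstream in the direction of the gene) of each shared distal peak within 50 kb, 1 row per gene, coloured by its mean rank over both replicates. The peaks of Fgfr1 and Fgfr4 lie mostly downstream of the start, those of Fgf18 and Fgf15 include a group near the right edge, and the rows of Fgf3, Fgf5, Fgf10 and Fgf13 are empty.

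The receptor genes Fgfr1 and Fgfr4 had the densest surroundings of their class. Fgfr1 had 11 shared distal peaks, 10 of them in its own introns. The strongest, at 23727 bp (25537281 to 25537480), had densities of 4.56 and 3.39, 4 and 3 footprints and a mean rank of 92.8 ± 2.10, about that of its promoter. The next, at 29777 bp, is the intronic sequence printed above, with densities of 3.52 and 2.55 and a rank of 89.8 ± 2.42. A further GC box in a footprint in both libraries (25543752 to 25543757) lay in the adjacent peak at 30037 bp, of rank 85.3 ± 3.94.

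Fgfr4 had 8 shared distal peaks, 7 of them downstream of its last exon, from 16561 to 37741 bp. The farthest (55190241 to 55190520) was the strongest distal peak of the whole set, with densities of 8.16 and 4.22, 5 and 7 footprints and a mean rank of 96.5 ± 0.542, above the 79.9 of the Fgfr4 promoter. Its nearest protein-coding start is that of Nsd1, a histone methyltransferase gene, at 19401 bp. The first downstream peak, at 16561 bp (55169041 to 55169360), is nearest to Fgfr4 and had a rank of 86.8 ± 1.25.

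At the other receptors the distal peaks were fewer or weaker. Fgfr3 had 5, the strongest at 16427 bp just past the gene, with a rank of 78.0 ± 4.96 and densities of 1.72 and 1.31. Fgfrl1 had 6, led by 1 at 34669 bp with 1.53 and 1.18 and a rank of 75.4 ± 5.62, which was nearer to a start of Rnf212, at 22397 bp. The gene itself had the nearest start for 2 of the 5 peaks of Fgfr3 and 2 of the 6 of Fgfrl1. Fgfr2 had 3 around its far upstream start, all nearest to Ctbp2, the strongest at 74.0 ± 7.07. Counted around any of its starts it had 7, and the strongest of those added was an intronic peak from 130215821 to 130215980 with a rank of 85.8 ± 0.227.

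Of the antagonists, all but Spry4 and Spred3 had their strongest distal peak within a few kb of the first start, as Fgf11 also had. Spry2 had 7, and the one at -2152 bp (105898861 to 105899080) had densities of 5.79 and 3.13, 2 and 3 footprints and a rank of 93.7 ± 0.0875, level with the promoter. Spred2 had 4, led by a peak at -3974 bp (19920121 to 19920680) with 3.79 and 2.51, 3 and 9 footprints and a rank of 90.2 ± 1.62. Spry4 had 2, the stronger at -30376 bp in an intron of AC133601.1 with a rank of 83.0 ± 4.16, and Spred1 had 2, the stronger at -1223 bp with 81.0 ± 7.74. Spry1 had 6, but none above the 70.7 ± 6.75 of a peak at 3084 bp in its own exon. The 4 peaks of Spred3 reached 67.1 ± 5.26, at 44766 bp in an exon of Ryr1, the calcium release channel of muscle.

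Fgf18 had the most shared distal peaks of any ligand, 10, with 9 of them nearest to its own start. The strongest lay at 48789 bp (33098501 to 33098720) with densities of 3.31 and 1.77, 3 and 4 footprints and a rank of 87.1 ± 0.233. Fgf1 had 7, led by an intronic peak at 39041 bp (38890341 to 38890520) with 4.33 and 2.09, 3 and 4 footprints and a rank of 90.0 ± 1.05. Both peaks ranked near the median receptor promoter, which had 89.9.

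Strong distal peaks near some ligands lay closer to other genes. The peaks near Fgf21 ranked 94.8 ± 2.32 at 26099 bp, in an exon of Bcat2 (45589241 to 45589540, densities 5.47 and 4.43), and 93.8 ± 1.52 at -13471 bp, in an exon of Rasip1 (45628861 to 45629060, densities 5.25 and 3.65). All 4 regions near Fgf21, whose own promoter had no peak, had another gene's start as the nearest. Fgf15 had 7, of which 5 lay from 44830 to 46930 bp, and the strongest of them (144941541 to 144941820, densities 3.58 and 2.92, rank 90.6 ± 3.23) was 1812 bp from a start of Ccnd1, the cyclin D1 gene. Of 6 near Fgf22, 1 had Fgf22 as the nearest gene, and the strongest, at -42465 bp, had a rank of 85.1 ± 3.16.

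Fgf8, with no promoter peak, had 4 shared distal peaks, led by -4746 bp (45747581 to 45747740), with densities of 2.78 and 1.57 and a rank of 84.7 ± 0.297, and -3656 bp, with 81.1 ± 5.05. Both of these lay nearer to a start of another gene, Npm3, at 1930 and 3020 bp from it. Fgf17, of the same subfamily and also without a promoter peak, had 4, the strongest at -4963 bp with 75.6 ± 0.905. The homologous factor Fgf11 had its strongest peak just upstream of the promoter, at -1104 bp (69802861 to 69803060), with densities of 3.89 and 2.47, 3 and 6 footprints and a rank of 90.3 ± 1.26, while its promoter had 57.0. Its sequence is among those printed above.

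The remaining genes had few or weak distal peaks. The strongest of each ranked 73.6 ± 6.83 for Fgf20, 66.4 ± 2.25 for Fgf9, 64.4 ± 8.34 for Fgf7, 62.8 ± 4.23 for Fgf16, 58.9 ± 0.959 for Fgf23, 52.0 ± 4.97 for Fgf2, 37.4 ± 14.1 for Fgf12 and 13.7 ± 4.99 for Fgf14. That of Fgf9 was nearest to a start of Micu2, at 35519 bp. Fgf6 and Fgf23 shared a peak of rank 57.6 ± 13.5 between them (127045001 to 127045180), the only one within 50 kb of Fgf6, and Fgf4 and Fgf15 shared one of 46.8 ± 12.2. Around any of their starts, Fgf12 had 6 in place of 1, with one of rank 80.2 ± 2.12, and Fgf2 had 7 in place of 4, with one of 87.1 ± 3.23 in an intron of Nudt6.

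Sequence motifs were searched on both strands in all shared peaks: the E-box CAGCTG, the ETS core CCGGAA, AP-1 TGANTCA, a loose MEF2 site (CTA, any 4 bases, TAG), the TEAD core GGAATG, RUNX TGTGGT, the nuclear factor I palindrome (TTGGC, any 5 bases, GCCAA), the GC box GGGCGG, MEF3 TCAGGTT and EBF CCCNNGGG. To compare equal lengths, 200 bp around each centre were used. The GC box was present in 19.8% of the 126 distal regions and 11.6% of all 45008, the E-box in 27.0% and 29.7%, the ETS core in 6.35% and 4.54%, and the MEF2 site in 5.56% and 2.37%. AP-1 was present in 7.94% and 7.82%, TEAD in 11.9% and 13.9%, RUNX in 12.7% and 14.0%, MEF3 in 3.97% and 2.51%, EBF in 10.3% and 9.89%, and the nuclear factor I palindrome in 0% and 0.176%. In the 59 shared promoter regions of these genes, the GC box was found in 50.8%, against 58.0% of 20585, and the ETS core in 10.2% against 18.2%. The GC content of the distal regions was also higher, as given above, and its part in the GC box share was not tested.

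Few matches lay inside a footprint in both libraries. In promoter peaks these were 10 GC boxes, in 9 genes (Spry1, Spry2, Spred1, Spred2, Fgfrl1, Fgfr4, Fgf2, Fgf12 and Fgf22), the E-box of Fgf1 and an EBF match of Fgf2. The same count over all 20585 promoter regions was not made, so the promoter matches are not a result about these genes. The distal shares that follow are over whole regions, not 200-bp windows, and are not matched for length. A GC box lay inside a footprint in both libraries in 6 of the 126 distal regions (4.76%, against 2.72% of all 45008). An E-box did so in 2 (1.59% against 2.75%) and EBF in 3 (2.38% against 1.3%). The ETS core, TEAD and MEF2 did so in 1 each (0.794%, against 0.247%, 0.493% and 0.147%). AP-1, RUNX, MEF3 and nuclear factor I matches did so in 0. The E-box, loose MEF2 and overlapping TEAD and ETS matches in distal regions are shown with 20 bp on either side. They are on the plus strand of mm10, with capitals marking the match. The 4 free bases of the MEF2 match read GTGG, and the loose pattern sets no limit on them.
Fgfr4, E-box in the peak at 22091 bp, chr13:55174689-55174734: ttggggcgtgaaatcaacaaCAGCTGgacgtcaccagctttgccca
Fgf18, E-box in the peak at 34729 bp, chr11:33112738-33112783: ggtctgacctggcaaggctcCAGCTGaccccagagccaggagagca
Fgf18, MEF2 match in the peak at 49359 bp, chr11:33098018-33098067: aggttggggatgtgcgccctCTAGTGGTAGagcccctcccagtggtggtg
Fgf22, TEAD match on the minus strand, chr10:79768556-79768601: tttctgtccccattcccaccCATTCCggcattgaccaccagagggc
Fgf22, ETS match on the minus strand, chr10:79768558-79768603: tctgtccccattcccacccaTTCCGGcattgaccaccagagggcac

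The peak with the Fgfr4 E-box had a rank of 61.2 ± 1.5, and those with the Fgf18 E-box and MEF2 match 65.1 ± 2.02 and 66 ± 13.7. The Fgf22 matches overlap each other in a peak of rank 79.2 ± 0.170. A match describes letters in the reference, and no factor's binding was measured here.

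The other genes of the pathway mostly had promoter peaks. Of 63 listed genes, 60 (95.2%) were called in both libraries, against 64.1% of all genes, with a median mean rank of 94.0, close to the 92.1 of all genes with a peak. Of the 63, 48 lie in the 4 classes of highest CpG ratio, in which 95.7% to 98.2% of all genes were called. All 12 adaptor genes had one, led by Crk (99.1 ± 0.181, densities 11.3 and 7.05) and Grb2 (99.0 ± 0.0386, 11.4 and 6.77), which link receptors to RAS activation. So had all 13 genes from RAS to ERK, led by Map2k1, the gene of an ERK-activating kinase (100 after rounding, ± 0.0108, 18.4 and 11.5) and by Hras (98.7 ± 0.138, 10.5 and 6.33). All 13 targets and feedback genes had one, led by the ETS factor Etv5 (99.0 ± 0.0984, 11.3 and 6.86) and the early response gene Egr1 (98.9 ± 0.324, 10.7 and 6.88).

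Outside the cell the picture was less even. All 10 genes of heparan sulfate synthesis and editing had a promoter peak, led by the polymerase gene Ext1 (97.0 ± 0.178, densities 8.25 and 4.88) and the sulfotransferase gene Hs6st1 (97.0 ± 0.610, 7.98 and 5.09). Of 15 coreceptors and binding partners 12 had one, led by Hspg2 (perlecan, 99.3 ± 0.158, 12.6 and 6.95) and the adhesion molecule gene Ncam1 (92.0 ± 0.804, 5.16 and 2.54). None was found in either library at Klb, the coreceptor for Fgf15 and Fgf21, at Flrt1, a membrane protein that binds FGF receptors, or at Fgfbp1, a carrier of secreted FGFs. Kl, the coreceptor for Fgf23, had a rank of 57.3 ± 12.5. The medians of the groups ran from 97.6 for adaptors and 96.8 for RAS to ERK to 85.0 for coreceptors, which is below the 92.1 of all genes and above the 81.0 of the FGF, receptor and antagonist genes with a peak.

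**Figure D5:**
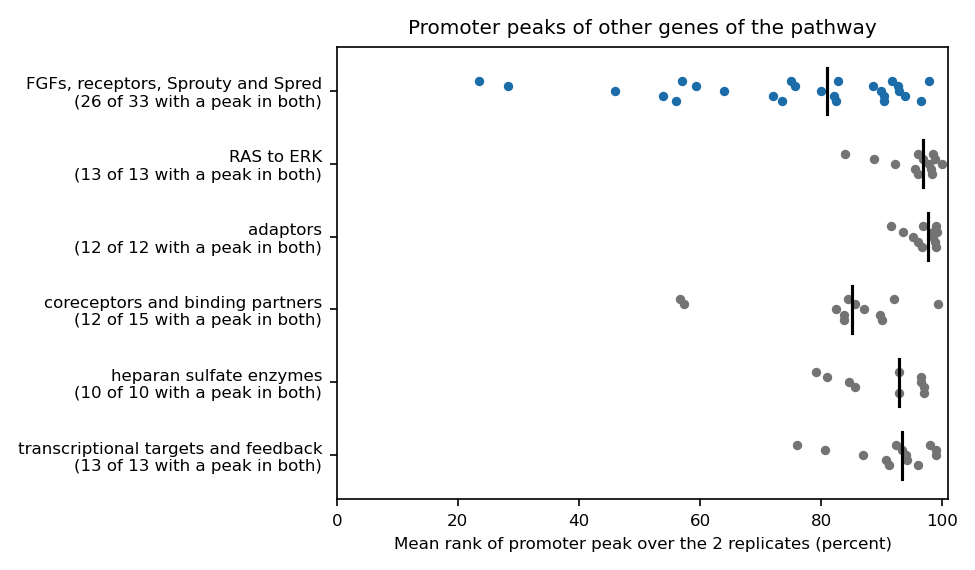
Mean rank of the promoter peak over both replicates (horizontal, percent) of each gene with a peak in both libraries, for the 33 genes (blue) and the 5 groups of the pathway list (grey), with a black bar at the median. The medians are 81.0 for the 33 genes, 96.8 for RAS to ERK, 97.6 for adaptors, 85.0 for coreceptors, 92.8 for heparan sulfate enzymes and 93.4 for targets.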

How the data were processed

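The authors' deposited peak lists give a cut density (signal) per peak, their footprint lists carry 1 constant value (0.01, of no stated meaning), and their deposited FDR (q-value) lists give stretches of bases below 0.05. All are on mm10 per the labels, each covering 1 library, and the sources used here do not give the aligner, caller, peak thresholds or depth scaling. Each library has a longer and a shorter peak list, and the longer one was used. Genes came from GENCODE M21 and sequence from GRCm38.p6, whose 21 chromosomes match. Peaks shared by both libraries overlap by at least 1 bp. Python 3.11.15, pandas 2.3.3, numpy 2.4.6, scipy 1.17.1 and pysam 0.24.0 were used, and overlap and motif functions were tested on simulated intervals. All 33 genes are named, with full values for promoter peaks, the rank of the strongest distal peak of each gene and the 10 distal peaks of highest mean rank. Printed sequences exclude chromosome 18 and UTRs, and a stretch in a Rasip1 exon was left out. The genes, gene lists, motifs and alternatives were chosen with earlier results of these data known, and the 200-bp motif windows were added later. With 1 group there was no test, and SDs describe the spread between these 2 libraries alone.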

Additional observations from a re-analysis of the deposited data

How the results depend on the processing

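The count of genes with a promoter peak in both libraries, 26, and the count with a shared distal peak, 29, stayed within 1.5-fold under all alternatives run, at 22 to 27 and 24 to 33. The share of all genes ran from 57.8% to 67.0% and from 49.1% to 85.6% over the same settings, and at 100 kb 31 of the 33 genes stood beside 85.6%. The median promoter rank, 73.6 ± 4.20 as a mean over the libraries (SD, n = 2), was 55.1 with the shorter lists and 47.1 with the strongest 50% of peaks, where a rank counts against fewer peaks. It was 63.8 with promoters of 200 bp and 64.8 with the most upstream start only, and 70.6 to 76.5 with 1 library left out. Shared distal peaks, 126, fell to 73 with the shorter lists, 78 with the strongest 50% and 51 within 20 kb, and came to 216 within 100 kb. With 1 library left out, which drops the demand that a peak be shared, they numbered 157 to 236. Fgf11 and Fgf23 lost the promoter call with the shorter lists, Fgf5, Fgf10, Fgf14 and Fgf23 with the strongest 50%, Fgf10 and Fgf15 with 200 bp, and Fgf14 and Fgfr1 with the first start only. Of 50 motif shares under alternatives, 49 stayed within the exact 95% binomial interval of the main share, and EBF moved from 18.3% to 10.3% with 200-bp windows, which are shorter than many peaks. No paired analysis was possible because there is 1 group and no result comes from a test. The unknown depth limits what can be said of peaks found in replicate 2 alone.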

Other observations

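Peaks of 1 library alone were most numerous around Fgf18, Spry4 and Fgf15. Summed over the 33 genes, 26 distal peaks within 50 kb were found in replicate 1 alone and 103 in replicate 2 alone, the library with the finer density step. A peak counts here for each gene it lies near. The longer lists hold 94295 peaks in replicate 1 and 123291 in replicate 2. The same sums over all genes are not given, so these numbers are not a result about the 33 genes. Around Spry4, a gene with 2 distal peaks in replicate 1, replicate 2 had 12, of which 10 were its own, at a median rank of 35.9. Around Fgf15 it was 10 of 17, at 42.1. Around Fgf18, 9 of 20 in replicate 1 and 16 of 28 in replicate 2 were found in that library alone, at median ranks of 8.22 and 9.05. Fgf10, with no shared distal peak, had 2 in replicate 1 and 0 in replicate 2.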
